A study of Mus musculus with 10 samples.

Results

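The complement and coagulation factors described here are 44 genes chosen by name, 21 of complement and 23 of blood clotting and its control. Of these, 41 had a probe set that names 1 gene and were measured, 20 of complement and 21 of coagulation, among 19935 genes in all. C3, the central component of complement, Cpb2, which encodes a carboxypeptidase that slows fibrinolysis, and Klkb1, which encodes plasma prekallikrein, had no such probe set and were not analysed here. The samples were livers of 5 mice lacking nucleomethylin (NML-KO) and 5 wild-type (WT) mice, all 12 weeks old, with 1 whole-transcript array of total RNA per liver. Nucleomethylin is a nucleolar protein encoded by Rrp8. How the gene was disrupted and the sex and strain of the animals are not stated in the labels.

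Complement is a cascade of plasma proteins that marks microbes and damaged cells for uptake and can assemble a pore in their membranes. Coagulation is a second cascade, in which clotting factors activate one another until thrombin turns fibrinogen into fibrin, while protein C and the fibrinolytic system hold it in check. Hepatocytes secrete most of these proteins into plasma, and infection or injury raises many of them as part of the acute phase response. A few members have other main sources: properdin (Cfp) comes largely from leukocytes, and factor VIII, von Willebrand factor, thrombomodulin (Thbd) and the protein C receptor (Procr) from endothelial cells.

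The targeted gene was checked first. Rrp8 had log2 intensities of 6.99, 6.78, 6.65, 7.19 and 6.75 in NML-KO livers, against 7.90, 7.66, 7.83, 7.70 and 7.65 in WT livers. No NML-KO liver reached the WT values, with a log2 difference of -0.88 (SE 0.10, adjusted p = 0.109). Array medians lay between 62.5 and 66.7 intensity units, and precision is limited by how many arrays there are. All levels below are log2 intensities of 1 probe set per gene, so values can be compared between livers but not between genes. Differences are in log2 units, and adjusted p-values are from limma with Benjamini-Hochberg adjustment over all genes.

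The livers were also divided by Dbp, a clock-controlled transcription factor gene whose transcript swings widely over the day. The Dbp-high set, with log2 Dbp above 8, held NML-KO 1 to 3 and WT 1 and 2, at 9.68 to 10.23. The Dbp-low set held NML-KO 4 and 5 and WT 3 to 5, at 6.20 to 6.60. Arntl, the gene of the clock activator BMAL1, lay at 5.55 to 5.90 in Dbp-high livers, against 8.10 to 8.27 in Dbp-low livers. The division comes from the same arrays and not from a label, and dissection time, feeding and batch, none of which the labels give, cannot be told apart in it. In whole tissue, fewer cells of a type and less RNA per cell cannot be told apart either.

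Between genotypes, none of the 41 members passed an adjusted p of 0.05, and none passed an unadjusted p of 0.05. NML-KO and WT values overlapped for all 41. Over all genes, 0% passed the adjusted threshold, 2.70% had an unadjusted p below 0.05 and 0.406% did not overlap. This fit, from which the intervals below also come, had no term for Dbp set. With that term, 0 members passed the adjusted threshold and 2 had an unadjusted p below 0.05, where 4.36% of all genes did. Differences, NML-KO minus WT, were above 0 for 19 members and below 0 for 22. Their median was 0.02 for complement and -0.01 for coagulation, against -0.01 over all genes. The intervals limit how large a difference could have been missed. For the median member the 95% interval reached no farther from 0 than 0.38 (1.30-fold), and the bound farthest from 0, that of factor IX (F9), was 0.85 (1.80-fold).

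The members with the smallest unadjusted p are given as values. Masp1, the gene of a lectin pathway protease, had log2 intensities of 11.49, 11.43, 11.63, 11.69 and 11.45 in NML-KO livers, against 11.35, 11.32, 11.49, 11.43 and 11.41 in WT livers, a difference of 0.13 (SE 0.06, unadjusted p = 0.0615). Proc, the gene of the anticoagulant protein C, had 10.65, 10.61, 10.70, 11.05 and 10.97 in NML-KO livers, against 11.06, 10.71, 11.09, 11.07 and 11.09 in WT livers, a difference of -0.21 (SE 0.11, unadjusted p = 0.080). Both genotypes overlapped for each gene, and both adjusted p-values were 0.9995. In complement, C1rl, which encodes a C1r-like protease, and Cfi, the gene of factor I, which cleaves activated C3 and C4, followed with -0.23 (SE 0.15) and 0.19 (SE 0.16). In coagulation, Pros1, the gene of the protein C cofactor protein S, had 0.18 (SE 0.17) and F2, the gene of prothrombin, -0.06 (SE 0.08). Within single Dbp sets 2 of these signs turned, to -0.06 for Pros1 in Dbp-high livers and to 0.11 for F2 in Dbp-low livers. Leaving out 1 liver also moved several values by over 1.5 times. Without NML-KO 4, Cfi had 0.07, Pros1 0.06, F2 -0.12 and the complement median -0.11, and 0 members were called. Without NML-KO 2, Cfi had 0.30, Pros1 0.27 and F2 -0.02. Pros1 had 0.28 without NML-KO 5, C1rl -0.15 without NML-KO 1, Cfi 0.12 without WT 2 and F2 -0.01 without WT 1.

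**Figure D1:**
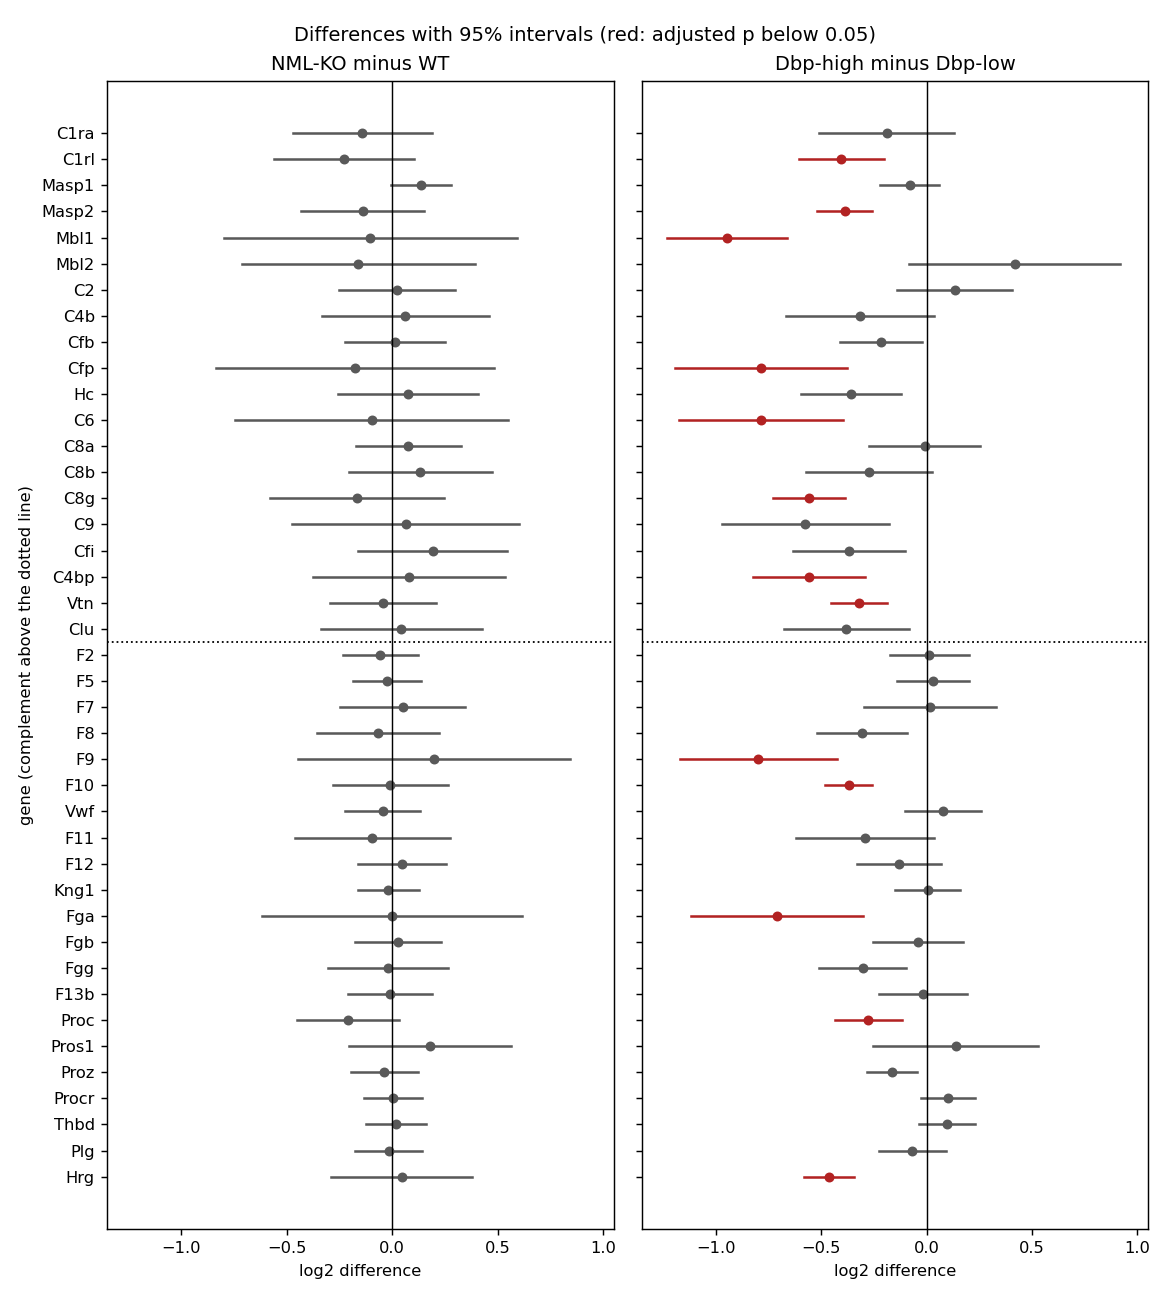
Log2 differences of the 41 measured genes, NML-KO minus WT in the left panel and Dbp-high minus Dbp-low in the right panel. Points are limma estimates over 10 livers and lines their 95% intervals, with an adjusted p below 0.05 in red: 0 genes are red on the left and 13 on the right, all of them below 0.

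Between the Dbp sets, with genotype in the model, 13 of the 41 members were lower in Dbp-high livers and 0 were higher. They were 8 of 20 complement genes (40%) and 5 of 21 coagulation genes (23.8%). Over all genes 12.9% were called, 7.99% lower and 4.91% higher. The median difference was -0.36 for complement and -0.07 for coagulation, against 0.02 over all genes, and 31 members lay below 0. Dbp-high and Dbp-low values did not overlap for 13 members, 7 of complement and 6 of coagulation, all lower, where 7.12% of all genes were separated downward and 5.04% upward.

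Members are mostly bright genes, for which the background was higher. In a refit of only the genes with a mean log2 intensity of at least 6, 16% were called lower in Dbp-high livers. That refit held 40 members and called 18 of them (45%) lower. These were the 13 and also Hc, C9, Cfi, F8 and Fgg, which did not pass in the fit over all genes. Quantile normalization split the calls over all genes into 1373 higher and 1383 lower, in place of 979 higher and 1593 lower. It called 11 members, all lower, of which 10 were among the 13 and Fgg was the other. The complement median was then -0.22 and the coagulation median -0.02, and with array weights the coagulation median was -0.01. Leaving out 1 liver moved the coagulation median to -0.03 (NML-KO 4), -0.11 (NML-KO 5) or -0.10 (WT 2), and the count over all genes to 1624 (NML-KO 5) in place of 2572.

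**Figure D2:**
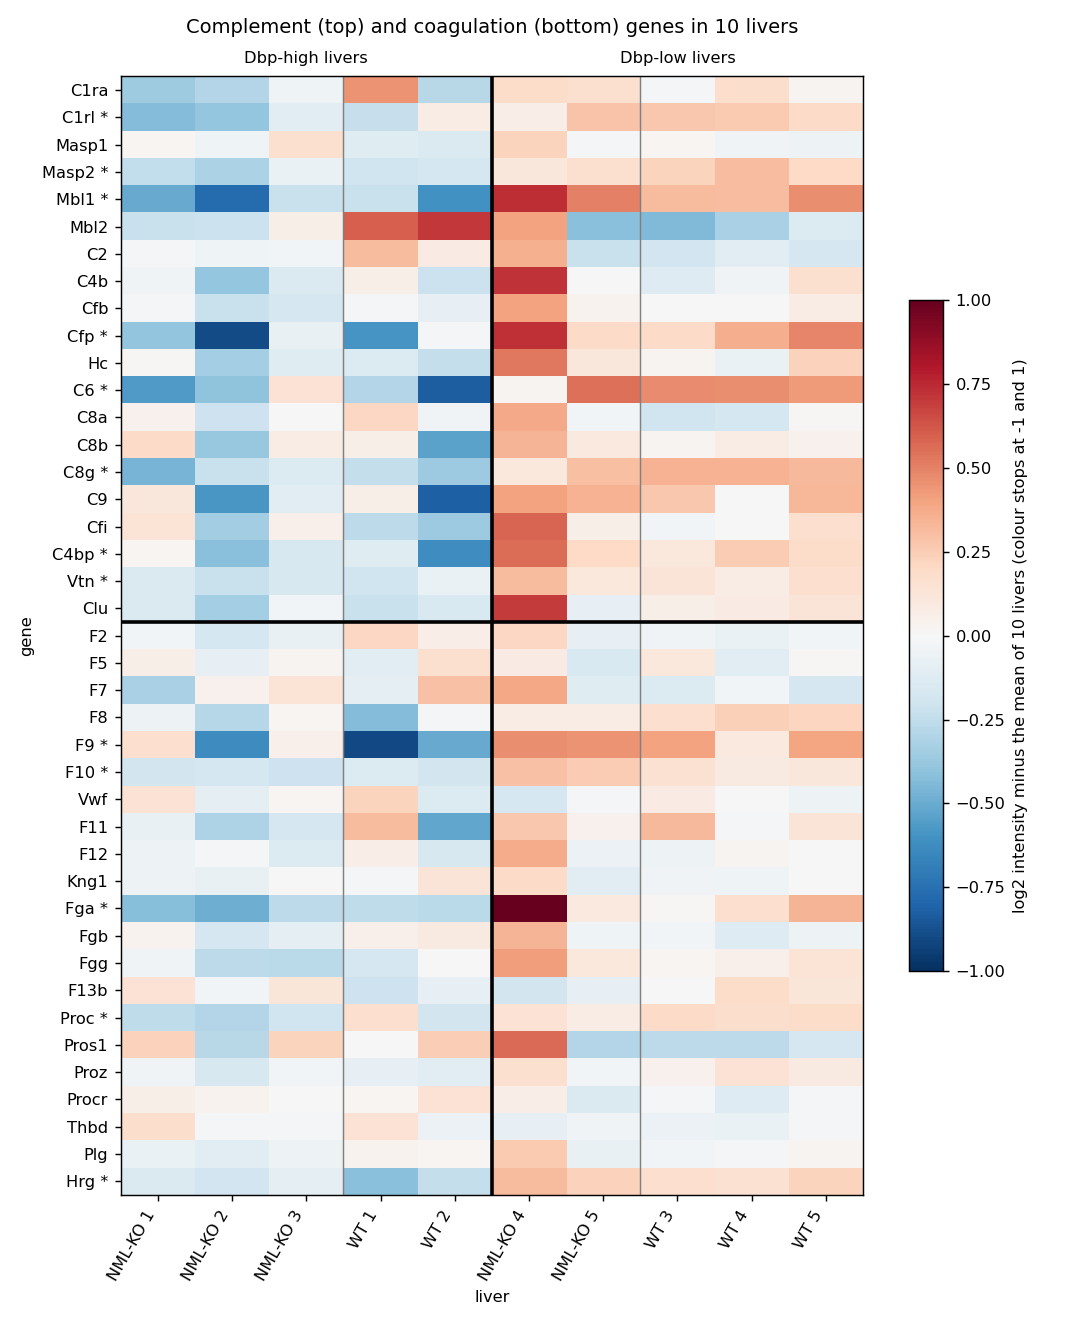
Log2 intensity of each measured gene minus its mean over the 10 livers, with genes grouped by role (complement above the horizontal line, coagulation below) and livers by Dbp set and genotype. Asterisks mark the 13 genes with an adjusted p below 0.05 between the sets, and NML-KO 4, the first Dbp-low column, is the highest of the 10 livers for 27 genes.

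In the values by liver that follow, the Dbp-high livers are in the order NML-KO 1, 2 and 3, then WT 1 and 2, and the Dbp-low livers in the order NML-KO 4 and 5, then WT 3, 4 and 5.

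Recognition by the classical and lectin pathways held 8 measured genes, of which 3 were lower in Dbp-high livers. Mbl1, which encodes mannose-binding lectin A, a plasma lectin that binds microbial sugars, had log2 intensities of 9.41, 9.14, 9.69, 9.69 and 9.31 in Dbp-high livers, against 10.65, 10.41, 10.22, 10.22 and 10.37 in Dbp-low livers. Every Dbp-high liver lay below every Dbp-low liver, by the largest mean difference of any member, -0.95 (SE 0.13, 1.93-fold, adjusted p = 0.00133). Masp2, the lectin-bound protease that cleaves C4 and C2, had 11.44, 11.37, 11.62, 11.49 and 11.51 in Dbp-high livers, against 11.80, 11.85, 11.91, 11.99 and 11.89 in Dbp-low livers. Its sets were also apart, with a difference of -0.39 (SE 0.06, adjusted p = 0.00241), or -0.23 (adjusted p = 0.0148) under quantile normalization. C1rl had 9.17, 9.21, 9.50, 9.38 and 9.68 in Dbp-high livers, against 9.67, 9.89, 9.88, 9.86 and 9.80 in Dbp-low livers. WT 2 alone reached into the Dbp-low range, and the difference was -0.40 (SE 0.09, adjusted p = 0.0164). That call was lost without WT 1 (-0.37, adjusted p = 0.0527) and without NML-KO 5 (-0.34, adjusted p = 0.0615).

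Mbl2, which encodes mannose-binding lectin C, had 9.02, 9.03, 9.31, 9.85 and 9.96 in Dbp-high livers, against 9.65, 8.83, 8.81, 8.92 and 9.11 in Dbp-low livers. Its highest values were in WT 1 and WT 2, followed by NML-KO 4, and the sets overlapped. Its difference of 0.42 (SE 0.22) was the highest of all members and did not pass (adjusted p = 0.267). Without NML-KO 4, Mbl2 (0.70, adjusted p = 0.0142) and C2 (0.30, adjusted p = 0.0258), the protease of the classical C3 convertase, were called higher in Dbp-high livers. Masp1 (-0.08), C1ra (-0.19), a protease of the C1 complex, C2 (0.13) and C4b (-0.32), the gene of component C4, did not pass with all livers, and C1ra passed without WT 1 (-0.38, adjusted p = 0.0197). The probe sets of C1ra and C4b may also read the near-identical genes C1rb and C4a.

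In the alternative pathway, Cfp and Cfb were measured. Cfp, the gene of properdin, which stabilizes the alternative C3 convertase, had 7.85, 7.35, 8.18, 7.66 and 8.23 in Dbp-high livers, against 8.98, 8.44, 8.44, 8.62 and 8.74 in Dbp-low livers. The sets were apart, with a difference of -0.79 (SE 0.18, 1.73-fold, adjusted p = 0.0199), and Cfp had the widest range of any member over the 10 livers, 1.63. The call was lost without WT 1 (-0.71, adjusted p = 0.0635) and without NML-KO 4 (-0.65, adjusted p = 0.0548). Macrophage markers moved with it: 3 of 9 measured were lower in Dbp-high livers, where 7.99% of all genes were. Their summed intensity was 1835 to 3407 in Dbp-high livers, against 2999 to 4742 in Dbp-low livers. Their part in the result was not tested. Cfb, the gene of factor B, the protease of that convertase, had 12.19, 11.97, 12.03, 12.18 and 12.11 in Dbp-high livers, against 12.60, 12.24, 12.19, 12.20 and 12.28 in Dbp-low livers. These values did not overlap, but the difference of -0.22 (SE 0.09) did not pass (adjusted p = 0.143).

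The terminal pathway builds the membrane attack complex, and 2 of its 6 genes were lower. C8g, which encodes the gamma chain of C8, had 11.75, 11.99, 12.08, 11.97 and 11.85 in Dbp-high livers, against 12.32, 12.51, 12.56, 12.56 and 12.54 in Dbp-low livers. All 5 Dbp-high livers lay below all 5 Dbp-low livers (-0.56, SE 0.08, adjusted p = 0.00150). The genes of the other C8 chains, C8a (-0.01, SE 0.12) and C8b (-0.27, SE 0.13), did not pass. C6 had 10.18, 10.35, 10.89, 10.45 and 9.92 in Dbp-high livers, against 10.78, 11.29, 11.22, 11.21 and 11.17 in Dbp-low livers. NML-KO 3 overlapped NML-KO 4, the lowest Dbp-low liver, and the difference was -0.79 (SE 0.17, adjusted p = 0.0163), or -0.74 (adjusted p = 0.0599) without NML-KO 5. Hc, the gene of C5, lay just outside the threshold with -0.36 (SE 0.11, adjusted p = 0.0544), and C9, whose product polymerizes into the pore, had -0.57 (SE 0.18, adjusted p = 0.0617). C9 passed in the absence of WT 1 (-0.74, adjusted p = 0.0223) or of NML-KO 1 (-0.64, adjusted p = 0.0472).

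Of the 4 regulators of complement, 2 were lower. Vtn encodes vitronectin, which blocks insertion of the membrane attack complex, and had 13.54, 13.45, 13.52, 13.48 and 13.61 in Dbp-high livers, against 13.99, 13.78, 13.81, 13.75 and 13.85 in Dbp-low livers. The sets did not overlap (-0.32, SE 0.06, adjusted p = 0.00751). C4bp, which encodes a cofactor for the breakdown of C4, had 11.47, 11.04, 11.29, 11.33 and 10.83 in Dbp-high livers, against 12.01, 11.65, 11.56, 11.71 and 11.64 in Dbp-low livers. Its sets did not overlap either (-0.56, SE 0.12, adjusted p = 0.0137), and the call was lost under quantile normalization (-0.40, adjusted p = 0.0590). Cfi (-0.37, SE 0.12, adjusted p = 0.0746) and Clu, the gene of clusterin, another inhibitor of the terminal complex (-0.38, SE 0.13, adjusted p = 0.0960), did not pass. Without NML-KO 5 both passed, Cfi with -0.47 (adjusted p = 0.0443) and Clu with -0.51 (adjusted p = 0.0371).

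**Figure D3:**
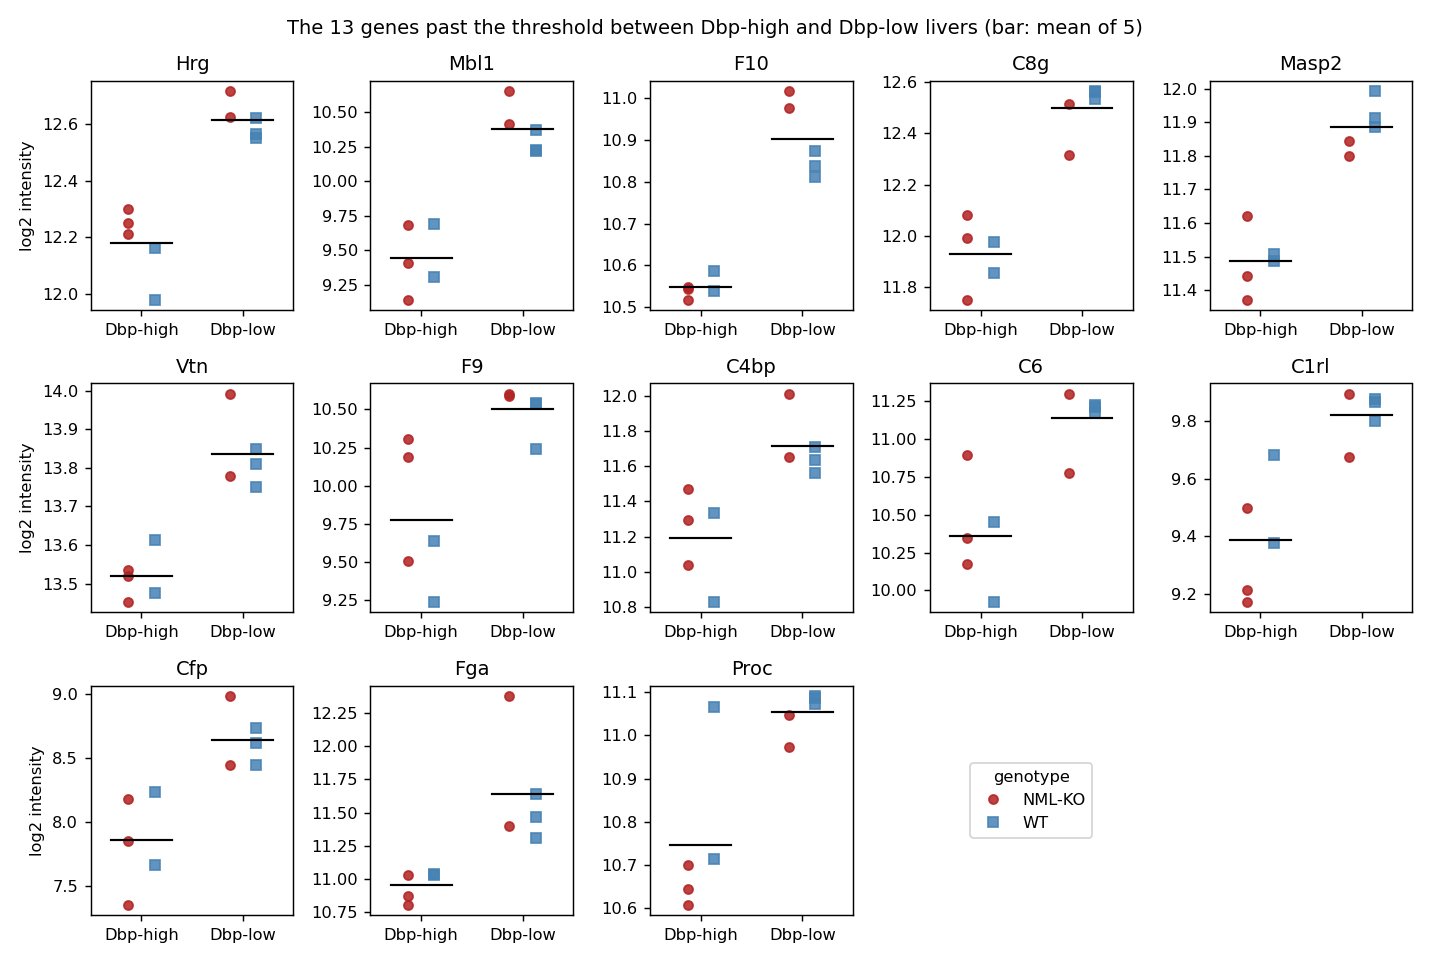
Log2 intensity in each liver of the 13 genes lower in Dbp-high livers, in order of adjusted p, with NML-KO livers as red circles, WT livers as blue squares and the mean of each set of 5 as a bar. The sets do not overlap for 9 of the 13; C1rl, C6, F9 and Proc overlap.

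Among the clotting proteases and cofactors, 2 of 7 were lower in Dbp-high livers. F10, the gene of factor X, which activates prothrombin, had 10.54, 10.55, 10.52, 10.59 and 10.54 in Dbp-high livers, against 11.02, 10.98, 10.87, 10.81 and 10.84 in Dbp-low livers. The Dbp-high values spanned 10.52 to 10.59, below every Dbp-low liver (-0.37, SE 0.05, adjusted p = 0.00144). F9, the gene of factor IX, which activates factor X and is lacking in haemophilia B, had 10.31, 9.51, 10.19, 9.24 and 9.64 in Dbp-high livers, against 10.60, 10.59, 10.54, 10.24 and 10.54 in Dbp-low livers. NML-KO 1 overlapped WT 4, and the difference was -0.80 (SE 0.17, 1.74-fold, adjusted p = 0.0123). F8, the gene of the factor IX cofactor, had 8.86, 8.62, 8.93, 8.48 and 8.89 in Dbp-high livers, against 8.98, 8.98, 9.07, 9.15 and 9.12 in Dbp-low livers. Its sets were apart, but -0.31 (SE 0.10) did not pass (adjusted p = 0.0652), although it did without NML-KO 3 (-0.35, adjusted p = 0.0433). None of 13 endothelial markers passed. Of the 13, 5 had an unadjusted p below 0.05, where 26.9% of all genes did, and 7 lay above 0 and 6 below. The genes of prothrombin (F2, 0.01, SE 0.08), factor V (F5, 0.03, SE 0.08), factor VII (F7, 0.02, SE 0.14) and von Willebrand factor (Vwf, 0.08, SE 0.08) had intervals that included 0.

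None of the 3 measured genes of the contact system, which starts clotting on charged surfaces, passed. The differences were -0.29 for F11 (SE 0.15), -0.13 for F12 (SE 0.09) and 0.01 for Kng1, the kininogen gene (SE 0.07). F11 passed without WT 1 (-0.46, adjusted p = 0.0279). The Kng1 probe set may also read the near-identical Kng2. The 95% intervals ran from -0.62 to 0.04 for F11 and from -0.15 to 0.16 for Kng1.

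Fibrinogen is built from 3 chains encoded by neighbouring genes on chromosome 3, and 1 of the 3 passed the threshold. The 250 bases before the start of each gene are shown because these neighbours had differences of -0.71 (Fga), -0.04 (Fgb) and -0.30 (Fgg). They are from RefSeq on GRCm38.p6, written on the strand of the gene, for Fga at chr3:83025903-83026152 (plus strand), Fgb at chr3:83049864-83050113 (minus strand) and Fgg at chr3:83007474-83007723 (plus strand). Capitals mark letters that match a C/EBP (TTGNGNAA), HNF1 half-site (GTTAAT), STAT3 (TTCNNNGAA) or type II IL-6 element (CTGGGAA) search on either strand.
Fga: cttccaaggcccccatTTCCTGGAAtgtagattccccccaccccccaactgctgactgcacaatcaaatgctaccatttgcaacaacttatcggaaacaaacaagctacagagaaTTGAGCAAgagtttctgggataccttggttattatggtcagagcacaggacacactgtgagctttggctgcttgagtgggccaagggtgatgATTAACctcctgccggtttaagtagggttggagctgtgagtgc
Fgb: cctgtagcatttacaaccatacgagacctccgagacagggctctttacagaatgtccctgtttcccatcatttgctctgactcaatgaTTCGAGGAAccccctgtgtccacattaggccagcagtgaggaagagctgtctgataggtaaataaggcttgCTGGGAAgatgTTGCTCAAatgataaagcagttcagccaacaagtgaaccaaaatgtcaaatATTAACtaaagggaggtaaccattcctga
Fgg: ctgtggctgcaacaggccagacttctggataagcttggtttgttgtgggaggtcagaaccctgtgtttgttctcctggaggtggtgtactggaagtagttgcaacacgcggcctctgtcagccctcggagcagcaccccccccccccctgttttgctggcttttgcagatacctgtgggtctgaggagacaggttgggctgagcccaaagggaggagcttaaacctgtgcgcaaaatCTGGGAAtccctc

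Fga, which encodes the alpha chain, had log2 intensities of 10.87, 10.81, 11.03, 11.04 and 11.03 in Dbp-high livers, against 12.38, 11.40, 11.31, 11.47 and 11.64 in Dbp-low livers. Every Dbp-high liver lay below every Dbp-low liver, among which NML-KO 4 stood highest. The difference was -0.71 (SE 0.18, 1.63-fold, adjusted p = 0.0306). Fgg, of the gamma chain, had 13.57, 13.34, 13.33, 13.44 and 13.61 in Dbp-high livers, against 14.03, 13.71, 13.63, 13.66 and 13.75 in Dbp-low livers. The sets were narrowly apart, at -0.30 (SE 0.09), just outside the threshold (adjusted p = 0.0577), and passed without WT 2 (-0.37, adjusted p = 0.0328). Fgb, of the beta chain, had 13.77, 13.56, 13.64, 13.78 and 13.82 in Dbp-high livers, against 14.07, 13.69, 13.70, 13.60 and 13.68 in Dbp-low livers. Here NML-KO 1, WT 1 and WT 2 lay above all Dbp-low livers but NML-KO 4, and the difference was -0.04 (SE 0.10, adjusted p = 0.820). The Fga call was lost without NML-KO 1, 2 or 3, WT 4 or WT 5, with differences of -0.74 to -0.66 and adjusted p-values of 0.0508 to 0.0652. It was also lost under quantile normalization (-0.56, adjusted p = 0.0585) and with array weights (-0.55, adjusted p = 0.0622). Without NML-KO 4 the Fga difference was -0.46 (adjusted p = 0.00931). Fga alone of the members had several probe sets, and their mean gave -0.99 (adjusted p = 0.0123). The size of its difference thus depends on which probe set was kept. F13b, of the carrier subunit of the fibrin-crosslinking factor XIII, had -0.02 (SE 0.09).

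**Figure D4:**
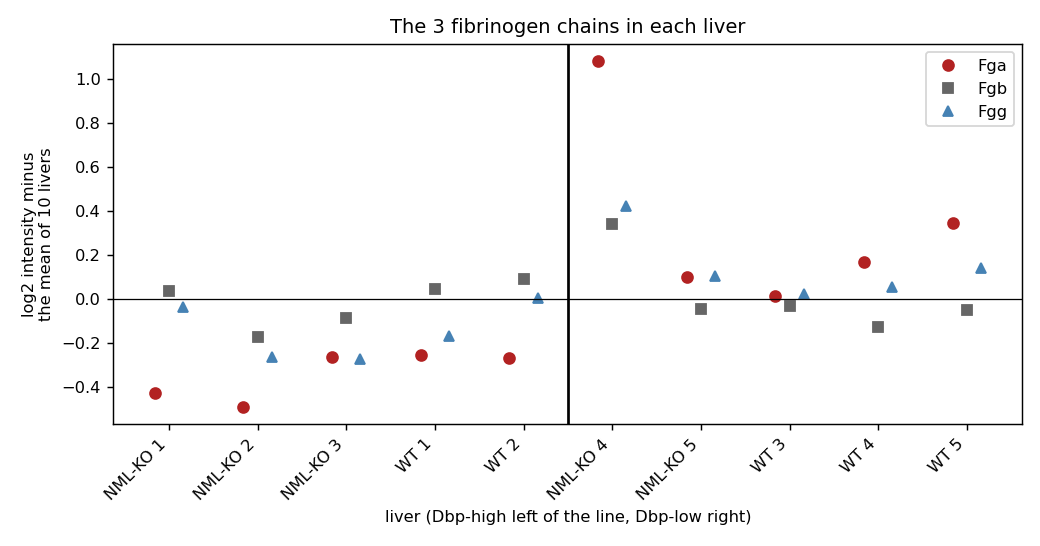
Log2 intensity of the fibrinogen alpha (Fga), beta (Fgb) and gamma (Fgg) chain genes in each liver minus the mean of that gene over 10 livers, Dbp-high livers left of the line and Dbp-low livers right of it. Fga lies below its mean in all 5 Dbp-high livers and above it in all 5 Dbp-low livers, while Fgb lies on both sides of its mean in each set.

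Of the 5 genes of the protein C system and Proz, 1 was lower. Proc had 10.65, 10.61, 10.70, 11.06 and 10.71 in Dbp-high livers, against 11.05, 10.97, 11.09, 11.07 and 11.09 in Dbp-low livers. WT 1 lay within the Dbp-low range and the other 4 Dbp-high livers below it, and the difference was -0.28 (SE 0.07, adjusted p = 0.0318). This call was the least stable: leaving out any array but WT 1 or NML-KO 3 raised its adjusted p above 0.05, to between 0.0567 and 0.0915. Quantile normalization left -0.16 (adjusted p = 0.216), and a trended and robust prior an adjusted p of 0.0551. Proz, which encodes protein Z, a cofactor in the inhibition of factor Xa, had 10.37, 10.25, 10.38, 10.32 and 10.31 in Dbp-high livers, against 10.57, 10.38, 10.45, 10.55 and 10.50 in Dbp-low livers. The sets did not overlap, at -0.16 (SE 0.05), without passing (adjusted p = 0.0773). Pros1 (0.14, SE 0.18) and the endothelial genes Procr (0.10, SE 0.06) and Thbd (0.10, SE 0.06) did not pass. Both endothelial genes were dim, Procr at 5.45 to 5.73 and Thbd at 6.08 to 6.34. Procr was the measured member left out of the refit of genes with a mean log2 of at least 6.

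In fibrinolysis, Hrg had the smallest adjusted p of all members. It encodes histidine-rich glycoprotein, which binds plasminogen and heparin, and its upstream stretch is shown for that rank, at chr16:22950822-22951071 (plus strand, GRCm38.p6, RefSeq), with a C/EBP match in capitals.
Hrg: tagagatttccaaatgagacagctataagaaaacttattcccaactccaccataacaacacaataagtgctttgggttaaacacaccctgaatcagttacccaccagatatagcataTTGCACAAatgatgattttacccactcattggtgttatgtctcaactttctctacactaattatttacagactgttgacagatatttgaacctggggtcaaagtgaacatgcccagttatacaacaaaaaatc

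Hrg had log2 intensities of 12.25, 12.21, 12.30, 11.98 and 12.16 in Dbp-high livers, against 12.72, 12.63, 12.57, 12.55 and 12.62 in Dbp-low livers. Every Dbp-high liver lay below every Dbp-low liver, with a difference of -0.46 (SE 0.05, 1.38-fold, adjusted p = 0.000617). Plg, the gene of plasminogen, had -0.07 (SE 0.07, adjusted p = 0.591).

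Other members that are neighbours in the genome are given side by side. In the cluster of F7, F10 and Proz, with no other protein-coding gene between them, the differences were 0.02, -0.37 and -0.16. Hrg and Kng1, with 1 protein-coding gene between them, had -0.46 and 0.01. C1rl and C1ra, also adjacent, had -0.40 and -0.19, C8b and C8a -0.27 and -0.01, and Cfb and C2 -0.22 and 0.13. C4b, with 5 protein-coding genes between it and Cfb, had -0.32. C6 and C9, with 8 between them, had -0.79 and -0.57, and Masp1, with 5 between it and Kng1, had -0.08.

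Promoter stretches were found for 30 measured members, 12 of them among the 13 lower genes. The D-box (TTATGTAA or TTACGTAA), the letters bound by the Dbp protein family, was in 0 of the 30 and in 1.1% of 27025 genes. An E-box (CACGTG) was in 1, C1rl, against 6.86% of genes. The HNF1 half-site was in 11 of 30 members, against 7.49% of genes, and in 4 of the 12 lower ones, C4bp, Cfp, Fga and Vtn. C/EBP letters were in 6 (13.2% of genes), STAT3 letters in 6 (8.13%), type II IL-6 letters in 5 (10.4%), HNF4 letters (CAAAGTCCA) in 0 (0.451%) and the NF-kB consensus in 0 (0.414%). Searches covered both strands, STAT3 and type II IL-6 letters can share bases, and a match is not a binding site.

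Taken by genotype, 26 of the 41 members (63.4%) had a difference below 0 in both NML-KO and WT livers, against 28.2% of all genes. A further 4 lay above 0 in both (9.76%, against 39.8%), and 11 had opposite signs (26.8%, against 32%), of which 10 lay below 0 in NML-KO livers and above 0 in WT livers. All 13 lower members were below 0 in both, which their choice by a fit over the same livers makes likely. Tested within NML-KO livers 0 members passed, where 1.27% of all genes did, and 17 had an unadjusted p below 0.05, where 16.1% of all genes did. Within WT livers alone 7 passed, 6 lower, where 3.8% of all genes were lower, and Mbl2 higher (0.95, adjusted p = 0.0149), where 2.32% were higher. The interaction of genotype with Dbp set, which tests whether the difference itself differs, was called for 0 members and 0% of all genes.

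At an unadjusted p below 0.05 the interaction picked 3 members, where 6.49% of all genes did. For Mbl2 the Dbp-high minus Dbp-low difference was -0.12 in NML-KO livers and 0.95 in WT livers (interaction -1.07, SE 0.30, adjusted p = 0.722). F13b had 0.21 in NML-KO livers and -0.25 in WT livers (interaction 0.46, SE 0.13, adjusted p = 0.722). F2 had -0.16 in NML-KO livers and 0.18 in WT livers (interaction -0.34, SE 0.14, adjusted p = 0.765). The NML-KO minus WT median over the 41 members was -0.04 in Dbp-high livers and 0.12 in Dbp-low livers.

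At the high end, NML-KO 4 stood apart. It was the highest of the 10 livers for 27 of 41 members (65.9%), 14 of complement and 13 of coagulation, and for 9.6% of all genes. It lay above the mean of the other 4 Dbp-low livers by 0.92 for Fga, 0.81 for Pros1, 0.73 for Mbl2, 0.72 for C4b and 0.65 for Clu, and below it by 0.45 for C6 (difference -0.45). Transcripts of an acute phase list, which also holds receptors and transcription factors, moved with these values. Their summed intensity over 30 genes was 172100 in NML-KO 4, against 60340 to 85360 in the other 9 livers, and Saa1, the gene of a serum amyloid A protein, reached 10.83 there. Saa1 was next highest in NML-KO 5, at 8.17, and lay at 4.45 to 6.82 in the remaining livers. Without NML-KO 4, 13 members were called between the Dbp sets, 11 lower and 2 higher, and 11 of them were among the 13 called with all livers. In the same fit 6.87% of all genes were lower and 4.19% higher. At the low end, NML-KO 2, a Dbp-high liver, was the lowest of the 10 livers for 15 members, followed by WT 2 with 8. The matching share over all genes was not counted. The acute phase sum was also lowest in NML-KO 2, at 60340.

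Genes of the acute phase list, which holds receptors and transcription factors too, also differed between the Dbp sets. Of 30 measured, 11 were lower in Dbp-high livers and 1, Il6ra, which encodes the interleukin-6 receptor, was higher (0.80), with a median of -0.52. Over all genes 7.99% were lower and 4.91% higher. Apcs, which encodes serum amyloid P, had -2.42 (SE 0.32, adjusted p = 0.00120), and Cp, the ceruloplasmin gene, -0.85 (SE 0.12, adjusted p = 0.00184). Their part in the members' differences was not tested.

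Further genes of both systems were looked at from lists by name. Of 27 measured complement genes outside the 44, 9 (33.3%) were lower in Dbp-high livers and 0 higher, with a median of -0.26. Over all genes 7.99% were lower. Cpn1 (-0.63, SE 0.06, adjusted p = 0.000234) and Cpn2 (-0.57, SE 0.08, adjusted p = 0.00210), the subunits of carboxypeptidase N, which inactivates anaphylatoxins, led by p. C1qb (-1.25) and C1qc (-1.02), chains of C1q made mainly by macrophages, Vsig4 (-1.24), a complement receptor of Kupffer cells, C1s1, Crp, Cd59a and C5ar2 were the others. In the refit of genes with a mean log2 intensity of at least 6, 16% were called lower. These lists were not counted in that refit. Of 29 further coagulation genes, again in the fit over all genes (7.99% lower), 5 (17.2%) were lower and 0 higher, with a median of -0.10. These were Tfpi2 (-0.85, SE 0.15, adjusted p = 0.00553), a protease inhibitor gene, Asgr2 (-0.31, SE 0.06, adjusted p = 0.00664), a chain of the asialoglycoprotein receptor, Ggcx (-0.47), the carboxylase that vitamin K-dependent factors need, F2rl2 and Serpina5. F2rl2 (-0.21) and Serpina5 (-0.33) were dim, at 5.13 to 5.52 and 5.02 to 5.70, under the mean log2 of 6 of that refit. Between genotypes 0 genes of either list passed the adjusted threshold.

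Marker genes of liver cell types were counted in the same comparison, in which 7.99% of all genes were lower and 4.91% higher. Of 9 hepatocyte markers, 2 were higher and 1 lower in Dbp-high livers. Albumin (Alb) lay at 14.30 to 14.59 over all 10 livers and was higher in Dbp-high livers by 0.21 (SE 0.04, adjusted p = 0.00896), and Apoa2 lower (-0.29, SE 0.05, adjusted p = 0.00753). The summed hepatocyte intensity was 128900 to 136500 in Dbp-high livers, against 123400 to 128200 in Dbp-low livers. Among macrophage markers Vsig4 and Folr2 (-0.82, SE 0.13) had the smallest p. Platelet markers had 2 of 8 lower, Ppbp (-1.80, SE 0.27) and Tubb1 (-0.40, SE 0.09), and bile duct markers 1 of 5, Sox9 (-1.13, SE 0.12). The other 4 bile duct markers lay above 0, and the median of the 5 was 0.06. None passed of 13 endothelial, 9 stellate cell and fibroblast, 10 neutrophil, 7 T and B cell and 2 erythroid markers. Of 24 liver transcription factor genes other than Dbp, a list that holds clock genes, 4 were higher and 5 lower.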

How the data were processed

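Total RNA of 10 mouse livers was hybridised to whole-transcript arrays after fragmentation and biotin labelling, per the labels' protocols. The authors deposited intensity values on a linear scale for 28815 probe sets, and their correction, normalization and summary steps are not stated in the labels. The submitters' processing notes name the genome build mm8. Values ran from 18.4 to 29834, every value column was matched to a sample title, and no array copied another (smallest root mean square difference 0.160 in log2 units).

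Genotype and replicate number came from the titles, which name separate livers. Nothing is stated on litters, cages or batches, so p-values measure the spread between these samples. Of the probe sets, 21780 had 1 gene symbol in the platform table, 1605 several and 5430 none. Symbols of 21689 were updated by gene ID through RefSeq (GRCm38.p6). The probe set with the highest mean was kept for each of 19935 genes, and of the members Fga had several. The deposited values were taken to log2 and fitted with limma 3.58.1 (lmFit, eBayes) under R 4.3.3. P-values were adjusted over all genes by Benjamini-Hochberg, with a threshold of 0.05. NML-KO was compared with WT, Dbp-high with Dbp-low with genotype as a term (Dbp itself left out), and the interaction was fitted. The fits were tested on simulated data.

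The members, gene lists and tests were chosen with earlier results of these data known. Members are named in full where they passed the threshold, did not overlap between groups, had the smallest p of their list or had the widest range. Other members are given by count or by their difference, and Mbl2 and Fgb liver by liver, chosen after their values were seen. Alternatives were other scalings, an offset of 16 before log2, other priors and weights, a filter on genes under a mean log2 of 6, the mean of probe sets, each array left out, single sets or genotypes, and the replicate number as a block.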

Additional observations from a re-analysis of the deposited data

Results flagged for a closer look

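Over 82 combinations of a measured gene and a genotype, 7 had 1 liver that lay far from the other 4 by Dixon's criterion (0.71 for 5 samples), and chance flags about 1 in 20 groups. In NML-KO, NML-KO 4 was the far liver for Plg at 13.49 and for F12 at 11.60, both the highest of their group, and NML-KO 1 for Thbd at 6.34. In WT, WT 2 was the far liver for C8b at 12.08 and for Proc at 10.71, both the lowest, and for Kng1 at 13.68, the highest, and WT 1 for Thbd at 6.31, the highest. No explanation was weighed for these values.

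F13b differed in the direction of its genotype difference between the Dbp sets. All NML-KO livers lay above all WT livers in the Dbp-high set (0.22) and below them in the Dbp-low set (-0.23). The interaction of 0.46 had an adjusted p of 0.722 by limma.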

How the results depend on the processing

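Between genotypes, 0 genes and 0 members were called under every alternative but one: without NML-KO 4, 1 gene, Rrp8 (-0.96, adjusted p = 0.0171), was called, so that the leave-one-out count over all genes ran from 0 to 1. The leave-one-out medians ran from -0.11 to 0.07 for complement and from -0.05 to 0.01 for coagulation. Pros1 within Dbp-high livers (-0.064) and F2 within Dbp-low livers (0.11) reversed their sign, neither called with all livers. Same-numbered NML-KO and WT livers had correlations of their deviations of 0.44, 0.26, -0.42, 0.35 and 0.54. Of 10 livers, 2 correlated best with their own number. Deviations were taken from genotype means, with the Dbp split left in. Livers numbered 1 and 2 were Dbp-high and those numbered 4 and 5 Dbp-low in both genotypes, while number 3 differed. The correlations therefore cannot decide whether the numbers pair the livers. With the replicate number as a block 0 genes and 0 members were called, and 3 members had an unadjusted p below 0.05, where 4.18% of all genes did. Within Dbp-low livers 3 members did (4.73% of all genes), and without NML-KO 5 also 3 (3.96%).

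Between the Dbp sets, leaving out 1 liver gave 1624 to 2556 genes (1624 without NML-KO 5) and 11 to 14 members. The medians then ran from -0.39 to -0.26 for complement and from -0.11 to -0.03 for coagulation. The complement median was -0.22 after quantile normalization. WT livers alone gave 1220 genes and 7 members. NML-KO livers alone gave 254 genes, 0 members and a coagulation median of -0.18. Both use 5 livers in place of 10. None of the 13 lower members, chosen on the same livers, reversed under any of 20 alternatives. The cause of the other changes was not tested, and no source used here says which part of each transcript the probes read.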
